A study of Homo sapiens with 32 samples.

Results

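The 8 genes described here act in the uptake and oxidation of fatty acids: FABP1, FABP2, CD36, ACSL5, CPT1A, CPT2, ACADM and EHHADH. They are 8 of 20033 protein-coding genes in the gene table used. A binding site was assigned to a gene when the summit of a peak lay within 50 kb of the gene's span on GRCh38, in any of 18 peak lists. Overlapping peaks of different lists were merged into 1 site, which gave 62 sites for the 8 genes, out of 78729 merged regions in all.

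The lists hold the binding sites of HNF4α found by chromatin immunoprecipitation sequencing (ChIP-seq) in 3 human cell lines of pancreatic ductal adenocarcinoma, with 9 groups of 2 libraries each. Panc10.05 and BxPC3 cells carried a construct induced by doxycycline, which makes HNF4α isoform α2 of the P1 promoter (P1-α2) or isoform α8 of the P2 promoter (P2-α8), and were studied with PP-H1415, an antibody to every HNF4α isoform (pan-HNF4α). The dose in BxPC3 was 500 ng/mL for either isoform; in Panc10.05 the P1-α2 cells had 25 ng/mL and the P2-α8 cells 12.5 ng/mL, so isoform and dose cannot be told apart there. AsPC1 cells carried CRISPR interference with a non-targeting guide (sgNC), a guide to the P1 promoter (sgP1) or a guide to the P2 promoter (sgP2). The pan-HNF4α antibody served for all 3 AsPC1 groups, and PP-K9218, which sees P1 isoforms only, for sgNC and sgP2. No uninduced library with antibody was analysed here.

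HNF4α is a nuclear receptor of liver, gut and pancreas that binds DNA as a homodimer and is known as a regulator of lipid metabolism genes in liver. Fatty acids enter cells with the help of CD36, a membrane transporter, and travel in the cytosol bound to FABP1 (the liver form) or FABP2 (the intestinal form). ACSL5 activates them to acyl-CoA, and CPT1A and CPT2 pass the acyl group into mitochondria by way of carnitine. ACADM carries out the first step of the oxidation of medium-chain fatty acids, and EHHADH is a bifunctional enzyme of peroxisomal oxidation.

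The longest list held 41808 peaks and the shortest pan-HNF4α list 11686, while the 2 P1-antibody lists of sgNC contained 697 and 260 peaks and those of sgP2 contained 5200 and 3916. The lists of Panc10.05 and BxPC3 stop at a −log10 q just above 8 and those of AsPC1 just above 2, so numbers of peaks were not compared between AsPC1 and the other lines. Read depth is unknown, and a site without a peak is only a site not called in that list. Cell line goes with the number that opens the library titles, whose meaning the labels do not give, so they cannot be told apart. Between Panc10.05 and BxPC3, line and doxycycline dose cannot be told apart either. Nothing in the labels says that the 2 libraries of a group came from separate cultures, so p-values measure the spread between these libraries.

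Start regions show where peaks lay and where they did not. Of the 8 genes, 7 have entries in the RefSeq promoter table (GRCh38.p14), and 4 windows of 250 bases before a transcript start are printed here, 5′ to 3′ on the strand of the gene. RABGGTB, which encodes a subunit of an enzyme that adds lipid anchors to Rab proteins, starts beside the ACADM locus, and its window lies under a site found in 16 of 18 lists. The ACADM window lay under a peak in 1 list, sgNC replicate 2 with the pan-HNF4α antibody. The windows of FABP1 and FABP2, the genes of the liver and intestinal binding proteins, lay under a peak in 0 of 18 lists.
RABGGTB, chr1:75786006-75786255, + strand: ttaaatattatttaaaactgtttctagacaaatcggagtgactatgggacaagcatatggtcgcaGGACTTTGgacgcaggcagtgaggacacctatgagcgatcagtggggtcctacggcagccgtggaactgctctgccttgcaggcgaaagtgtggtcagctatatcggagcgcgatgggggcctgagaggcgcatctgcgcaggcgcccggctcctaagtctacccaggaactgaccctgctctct
ACADM, chr1:75724459-75724708, + strand: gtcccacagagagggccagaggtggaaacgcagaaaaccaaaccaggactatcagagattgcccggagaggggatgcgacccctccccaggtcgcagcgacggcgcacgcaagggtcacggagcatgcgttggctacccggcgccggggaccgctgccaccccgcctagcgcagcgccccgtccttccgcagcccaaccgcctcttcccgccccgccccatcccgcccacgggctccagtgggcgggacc
FABP1, chr2:88128063-88128312, − strand: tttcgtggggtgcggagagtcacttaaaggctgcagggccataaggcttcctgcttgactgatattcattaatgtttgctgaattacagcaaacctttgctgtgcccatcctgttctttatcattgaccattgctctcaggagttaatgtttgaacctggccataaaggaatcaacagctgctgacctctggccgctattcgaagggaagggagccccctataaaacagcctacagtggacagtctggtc
FABP2, chr4:119322139-119322388, − strand: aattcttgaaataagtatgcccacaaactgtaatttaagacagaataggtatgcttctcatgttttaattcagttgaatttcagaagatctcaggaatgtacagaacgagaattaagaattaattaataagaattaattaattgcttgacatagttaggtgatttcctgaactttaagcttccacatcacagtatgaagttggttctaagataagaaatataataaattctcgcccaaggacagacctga

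Capitals in the RABGGTB window mark GGACTTTG, at chr1:75786071-75786078, which on the other strand reads CAAAGTCC. These 8 letters are the start of CAAAGTCCA, a sequence typical of HNF4 sites, but the next letter here is T, so the full sequence is absent. They were searched only after the window had been seen. They occur on either strand in 1.2% of 35116 RefSeq windows of 300 bases. The summits of the 16 lists at this site lay between 75785986 and 75786098, and 14 of them were within 25 bp of the middle of the 8 letters, with a median distance of 12 bp. In addition, 3 longer strings were searched on both strands of all windows: CAAAGTCCA (0.384% of windows), CAAAGGTCA (0.407%) and GGTCANAGG (1.41%). Matches were found in 0 of the 13 windows of the 7 genes, and the RABGGTB window had no match to these longer strings either. This says only that these letters are absent there.

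Peaks in both replicates were found at 6 to 8 of the 8 loci in every pan-HNF4α group. In Panc10.05, 6 loci had them with P1-α2, where 74.5% of all genes did, and 7 with P2-α8, where 79.5% did. In BxPC3, all 8 had them with P1-α2 (76.6% of all genes) and 6 with P2-α8 (45.4%). In AsPC1, the count was 7 with sgNC (58.5%), 6 with sgP1 (50.6%) and 6 with sgP2 (52%). Loci with a peak in both replicates were therefore common among all genes, and among the pan-HNF4α groups the 8 loci stood nearest to that background in Panc10.05. The members span 4889 to 89658 bp, against a median of 24130 bp over all genes, and longer genes have wider windows.

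**Figure D1:**
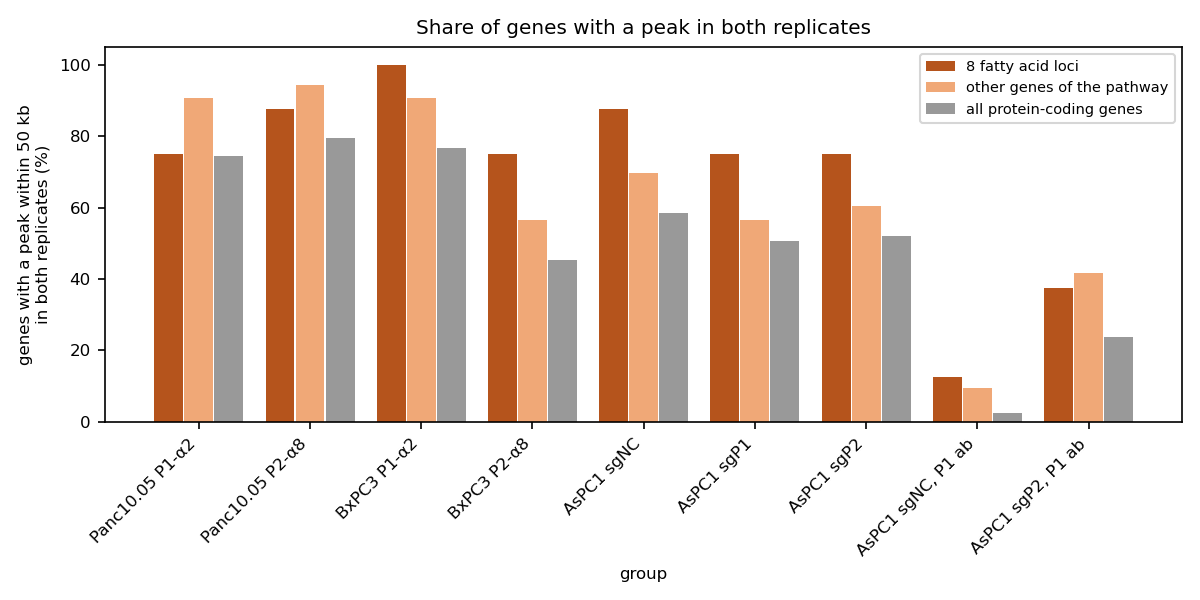
Share of genes with a peak within 50 kb in both replicates (%, vertical axis) in each of the 9 groups, for the 8 fatty acid loci, 53 other genes of the pathway and 20033 protein-coding genes; "P1 ab" marks the P1-specific antibody. BxPC3 P1-α2 has all 8 loci, and the P1-antibody group of sgNC has 1.

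The P1-specific antibody gave a shorter set. With sgNC, ACSL5 alone had a peak in both replicates, where 2.31% of all genes did. With sgP2, ACSL5, ACADM and CD36 had, 3 of 8 against 23.7% of all genes. In all 14 pan-HNF4α lists a peak lay near CPT1A, ACSL5, ACADM, EHHADH and CD36, 5 of 8 loci against 29.6% of all genes. All 8 lists of the induced lines held a peak near 6 of the 8 loci (41.6% of all genes), without FABP1 and FABP2, and all 6 AsPC1 pan-HNF4α lists near 6 (45.7%), without FABP1 and CPT2. ACSL5 was the only one of the 8 with a peak in all 18 lists, which held for 2.26% of all genes.

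Of the 62 sites, 14 belonged to ACSL5, 10 to CPT2, 10 to ACADM, 9 to CPT1A, 9 to CD36, 4 to EHHADH, 3 to FABP1 and 3 to FABP2. A member's span held 22 of the sites, and the member was the nearest protein-coding gene for 36. SLC44A5 was the nearest gene for 8 of the 10 sites of the ACADM locus, where ACADM itself was nearest for 1, and the 3 sites of the FABP2 locus lay inside ARLN or USP53. Sites found in more lists ranked higher within them: the median of the mean percentile by fold enrichment, where 100 is the strongest peak of a list, was 14.3 for the 12 sites in a single list, 31.7 for 22 sites in 2 to 5 lists, 51.5 for 19 in 6 to 11 lists and 67.4 for 9 in 12 to 18 lists. A threshold on peaks favours such an order by itself, and the medians were not taken over all regions. The fold enrichment behind the percentiles is the authors' value for each peak.

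**Figure D2:**
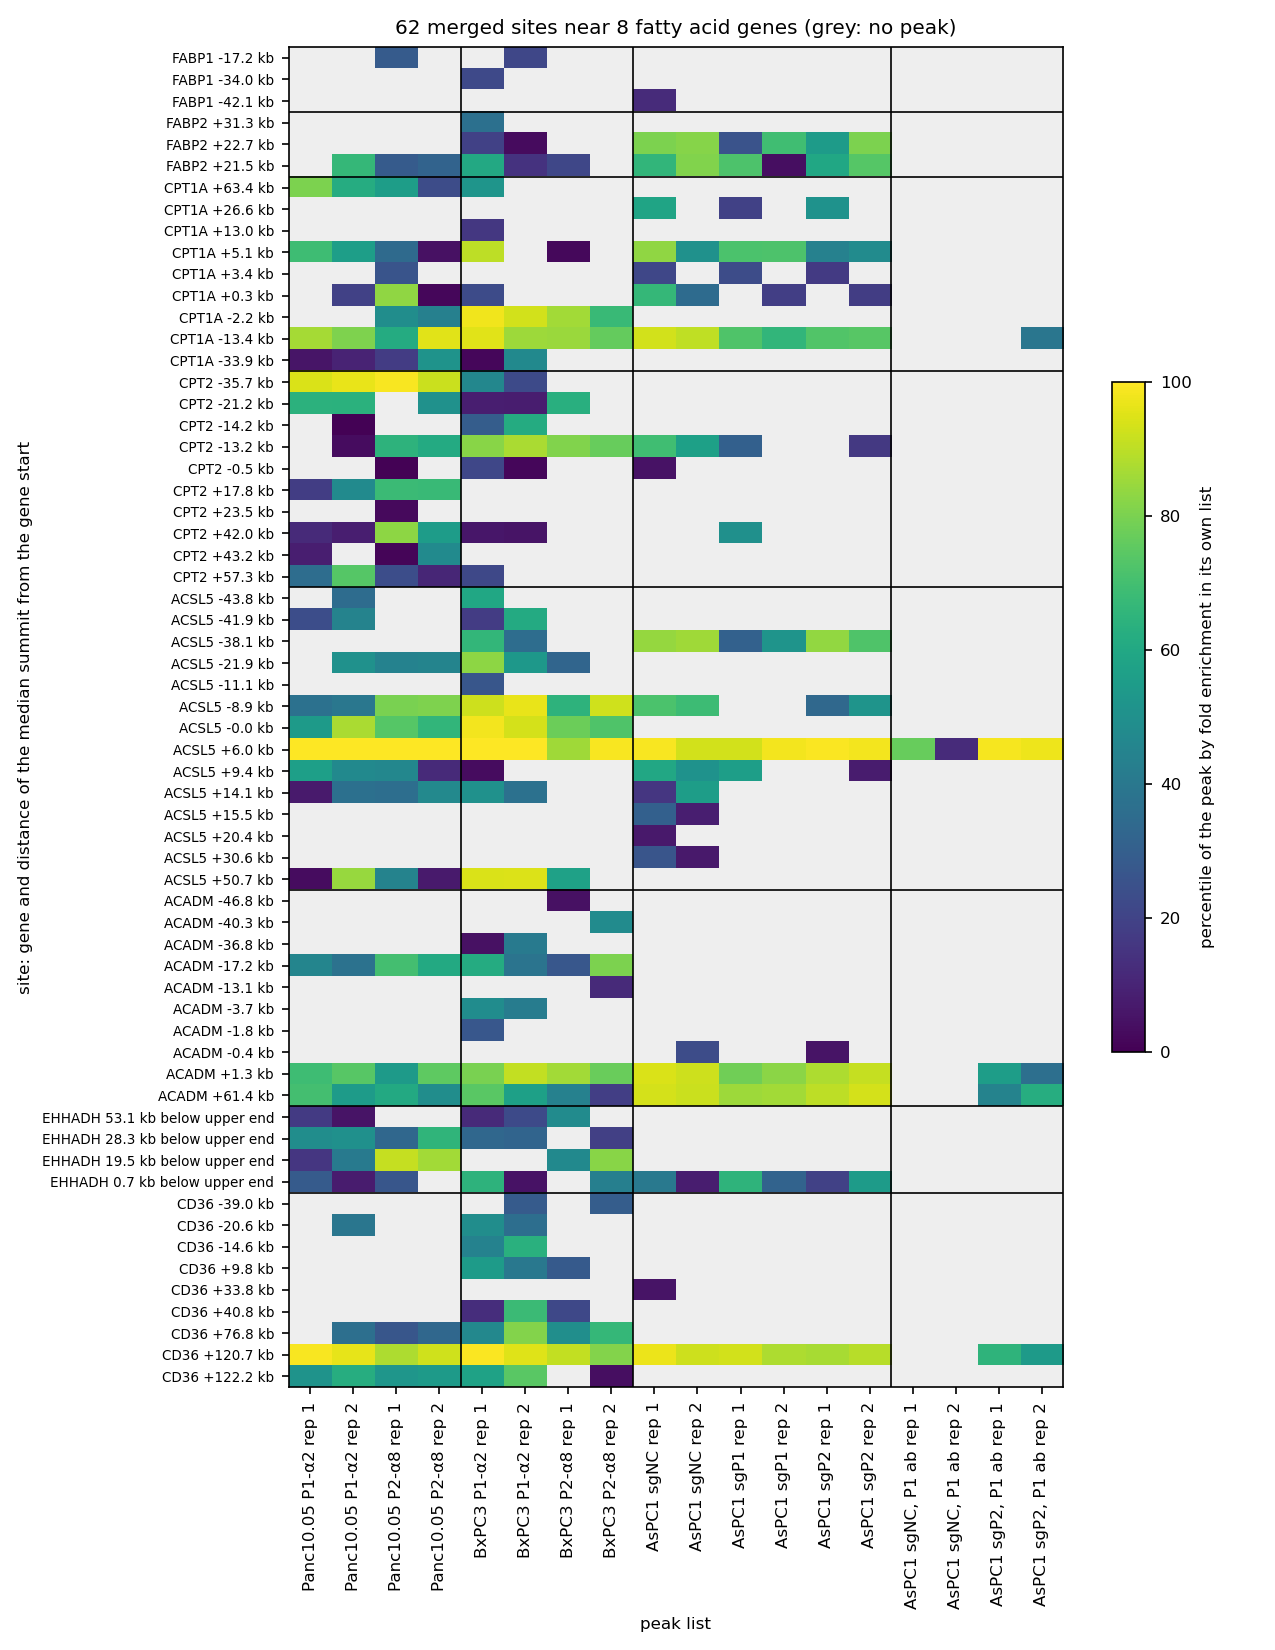
The 62 sites (rows, by gene and distance in kb of the median summit from the gene's start, positive in the direction of transcription, or from the upper end of the span for EHHADH) in 18 peak lists (columns). Colour gives the percentile of the peak by the authors' fold enrichment within its own list and grey means no peak; 5 rows are filled across all 14 pan-HNF4α lists, and the row of ACSL5 at +6.0 kb is filled in all 18.

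A peak was called in all 14 pan-HNF4α lists at 5 of the 62 sites, against 2.95% of all merged regions. They lay at CPT1A, ACSL5, CD36 and, with 2 sites, ACADM. All 8 lists of the induced lines shared 8 sites (7.15% of regions) and all 6 AsPC1 pan-HNF4α lists 10 (9.46%). The site inside ACSL5 was also in the 4 P1-antibody lists, as were 0.207% of all regions.

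ACSL5 makes the acyl-CoA that the later steps use. Its strongest site, chr10:112379327-112380598, lies inside the gene (chr10:112374116-112428376), 5.98 kb after the start of its span; exon and intron were not annotated here. In Panc10.05 the percentile was 99.9 in both P1-α2 lists and both P2-α8 lists, with ranks of 35 of 24828, 47 of 34146, 28 of 39111 and 22 of 33646 peaks. In BxPC3 it was 99.8 and 99.9 with P1-α2 and 85.9 and 99.2 with P2-α8. In AsPC1 it was 98.9 and 93.0 with sgNC, 93.3 and 98.1 with sgP1, and 99.3 and 98.1 with sgP2. The BxPC3 P2-α8 replicate 1 list was thus the lowest of the pan-HNF4α lists, and the summits stayed within 226 bp over all 18 lists. The authors' fold enrichment of this peak ranged from 67.5 to 117 in the Panc10.05 lists, from 15.0 to 56.1 in the BxPC3 lists and from 18.8 to 42.6 in the AsPC1 pan-HNF4α lists. With the P1 antibody the percentile was 76.6 and 12.3 for sgNC, with a −log10 q of 23.3 and 3.44, and 98.5 and 97.4 for sgP2, so the weakest call came from the list of 260 peaks.

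The other ACSL5 sites differed by line and guide. A site at the first base of the span, chr10:112373751-112374380, had a peak in all 8 lists of the induced lines, with percentiles of 54.6 to 98.1, and in 0 of 6 AsPC1 pan-HNF4α lists. The 2 windows of ACSL5 in the promoter table, further inside the span, lay under 0 sites. A site 38.1 kb before the start, chr10:112335390-112336288, differed from it, with a peak in all 6 AsPC1 pan-HNF4α lists, in both BxPC3 P1-α2 lists and in 0 of 4 Panc10.05 lists. The pattern of the first occurred in 2.43% of all regions and was shared by a site 17.2 kb before the start of ACADM. The pattern of 6 AsPC1 lists with 0 Panc10.05 lists occurred in 1.97% of regions and was shared by a site in ARLN, 17.8 kb from FABP2. No site of the 8 loci was in all 6 AsPC1 lists and in 0 induced lists, as were 1.18% of all regions.

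**Figure D3:**
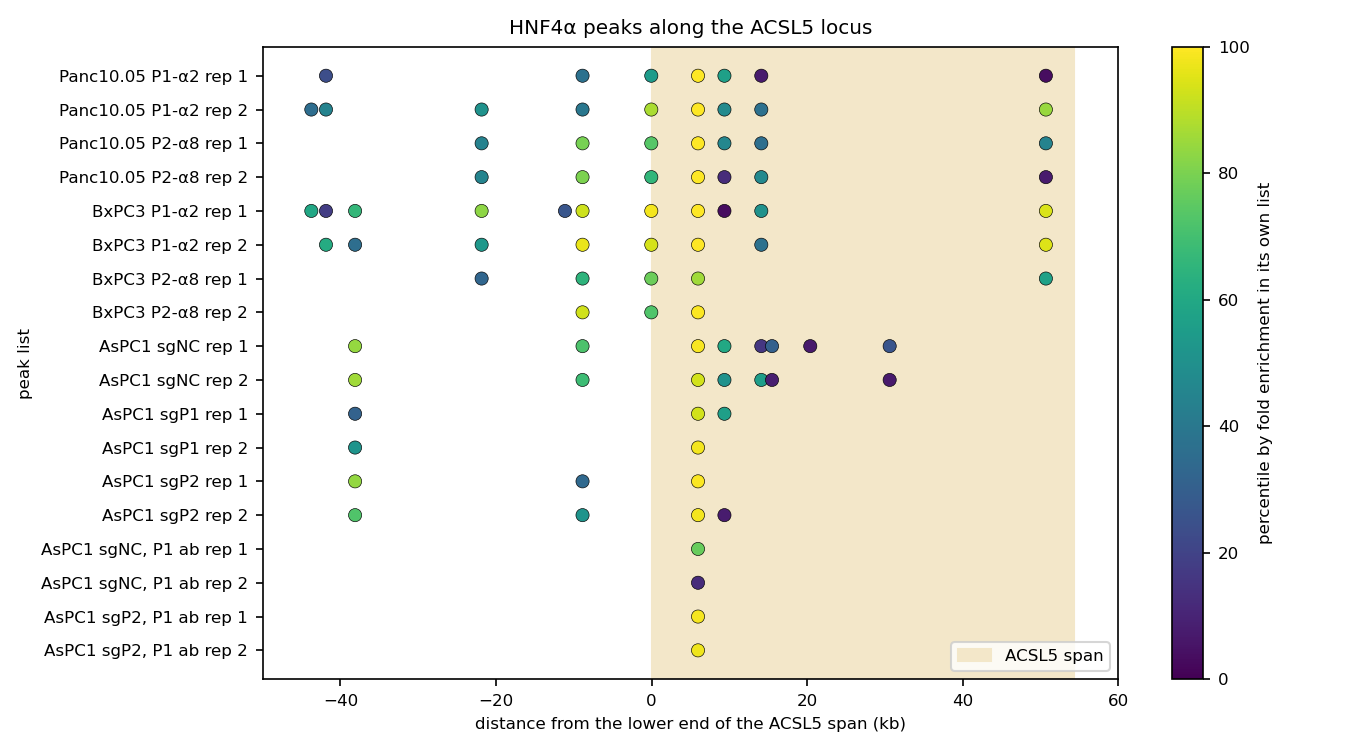
Peaks along the ACSL5 locus in each of the 18 lists (rows), by distance in kb from the start of the gene (horizontal axis); the shaded band is the span of ACSL5 and colour is the percentile by fold enrichment within the list. The column of points near +6 kb runs through all 18 lists, and the points at +15.5 and +30.6 kb occur with sgNC alone.

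ACADM, the medium-chain acyl-CoA dehydrogenase, had 2 sites in all 14 pan-HNF4α lists and in both sgP2 lists of the P1 antibody. The site at chr1:75725620-75726373 lies 1.33 kb inside the gene (chr1:75724709-75763679). Its percentiles were 68.9, 74.0, 54.5 and 75.3 in Panc10.05 and 79.7, 90.8, 86.1 and 77.2 in BxPC3, each time P1-α2 first. In AsPC1 they were 94.3 and 92.5 with sgNC, 78.4 and 82.6 with sgP1, 87.5 and 91.4 with sgP2, and 55.5 and 36.6 with sgP2 and the P1 antibody. The 2 sgP1 lists were the lowest of the 6 AsPC1 pan-HNF4α lists, and their values did not overlap those of sgNC or sgP2. Ranks in lists of different lengths show no change by themselves, and the share of all regions with this order was not counted.

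The other site, chr1:75785737-75786378, lies 22.4 kb beyond the end of ACADM and covers the start of RABGGTB printed above. Its percentiles were 70.0, 54.8, 60.6 and 48.9 in Panc10.05 and 74.3, 56.9, 43.9 and 18.7 in BxPC3. In AsPC1 they were 93.6 and 91.8 with sgNC, 85.2 and 86.0 with sgP1, 90.2 and 93.6 with sgP2, and 44.7 and 62.3 with sgP2 and the P1 antibody. All 6 AsPC1 pan-HNF4α values were above all 8 of the induced lines, and how many regions share this order was not counted. AsPC1 lists reach down to weaker peaks, which raises the percentile of a given peak.

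CPT1A, the outer membrane carnitine palmitoyltransferase that limits the rate of mitochondrial oxidation, had 9 sites, 6 of them inside the gene (chr11:68754620-68844277). The site common to the pan-HNF4α lists, chr11:68857294-68858094, lies 13.4 kb before the start. Its percentiles were 86.7, 80.7, 61.6 and 95.5 in Panc10.05, 95.5, 85.5, 84.8 and 76.2 in BxPC3, and 93.0, 90.5, 72.4, 65.8, 72.8 and 74.0 in AsPC1, in the order sgNC, sgP1, sgP2. Both sgNC lists stood above the 4 lists of the targeting guides, though ranks in lists of different lengths show no change by themselves. How many regions share this order was not counted. With the P1 antibody a peak was called in 1 list, sgP2 replicate 2, at a percentile of 39.4.

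A second CPT1A site, chr11:68845494-68847074, 2.19 kb before the start, had a peak in all 4 BxPC3 lists and both Panc10.05 P2-α8 lists. Its percentiles were 98.0 and 93.0 with P1-α2 and 86.2 and 67.7 with P2-α8 in BxPC3, and 48.9 and 43.5 with P2-α8 in Panc10.05. Neither Panc10.05 P1-α2 list and no AsPC1 list held it. A site 0.331 kb inside the gene, chr11:68843614-68844228, was found in 8 lists, and in 0 of them did its peak reach into the 250 bases before the start.

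CPT2, the inner membrane partner of CPT1A, had 10 sites, 0 of them inside its span (chr1:53196824-53214197). Its peak number was 6 and 7 in the Panc10.05 P1-α2 lists, 8 and 7 with P2-α8, 7 and 6 in BxPC3 with P1-α2 and 2 and 1 with P2-α8. In AsPC1 it was 2 and 1 with sgNC, 2 and 0 with sgP1, 0 and 1 with sgP2, and 0 in the 4 P1-antibody lists. The BxPC3 P2-α8 lists were thus far below the other induced lists, and they were also the shortest induced lists, with 12681 and 14666 peaks.

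The CPT2 site found in most lists, 11 of 18, was chr1:53183294-53183967, which lies 13.2 kb before the start. Its percentiles were 82.2 and 87.4 in BxPC3 with P1-α2 and 80.9 and 76.7 with P2-α8, and 64.8 and 61.1 in Panc10.05 with P2-α8, while with P1-α2 a peak was called in replicate 2 alone, at 3.34. In AsPC1 it was called in both sgNC lists (69.5 and 56.9) and in 1 list each of sgP1 (30.8) and sgP2 (16.7).

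The highest-ranked CPT2 site in Panc10.05, chr1:53160727-53161562, lies 35.7 kb before the start and nearest to SLC1A7. Its percentiles were 94.3 and 96.8 with P1-α2 and 99.2 and 91.9 with P2-α8, against 46.2 and 22.4 in BxPC3 with P1-α2. No peak was called there in the BxPC3 P2-α8 or AsPC1 lists. A site 0.402 kb beyond the end of CPT2, inside CZIB, was in all 4 Panc10.05 lists and 0 of 4 BxPC3 lists, a pattern of 4.82% of all regions.

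EHHADH had 4 sites, all inside the gene, at chr3:185190624-185254049. Its strand was not given in the tables used, so places are counted from the upper end of the span. The site at chr3:185253114-185254036, 0.715 kb inside that end, had a peak in 12 lists, among them all 6 AsPC1 pan-HNF4α lists, with percentiles of 4.77 to 64.9. It was the only EHHADH site called in AsPC1.

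A site in the body of EHHADH, chr3:185234263-185235025, was called in all 4 P2-α8 lists and in the Panc10.05 P1-α2 lists, but in neither BxPC3 P1-α2 list. Its fold enrichment was 8.99 and 13 with P1-α2 and 25.8 and 20.4 with P2-α8 in Panc10.05, and 9.80 and 11.7 with P2-α8 in BxPC3. The percentiles in the same order were 15.9 and 40.9, 91.1 and 86.1, and 47.5 and 82.2. In Panc10.05 the P2-α8 values lay above the P1-α2 values without overlap, in lists of different lengths and at different doses. The share of all regions with this order was not counted. In BxPC3 this site was 1 of only 61 regions, out of 47225, in both P2-α8 lists and in neither P1-α2 list (0.129%). The BxPC3 P1-α2 lists nonetheless held 41808 and 33737 peaks.

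CD36, the membrane transporter (chr7:80602207-80679274), had 9 sites. The site common to the pan-HNF4α lists, chr7:80722486-80723278, lies 43.7 kb beyond the end of the gene, and the nearest gene is SEMA3C, 19.6 kb away. Its percentiles were 99.0, 96.1, 87.8 and 92.9 in Panc10.05 and 99.3, 95.3, 90.8 and 81.4 in BxPC3, P1-α2 first. In AsPC1 they were 97.2 and 92.4 with sgNC, 93.0 and 87.6 with sgP1, and 86.8 and 89.2 with sgP2. With the P1 antibody they were 65.0 and 54.5 for sgP2, and no peak was called for sgNC. Within each induced line the P1-α2 percentiles exceeded the P2-α8 percentiles without overlap, and the sgNC percentiles exceeded those of sgP2. Ranks in lists of different lengths show no change by themselves, and the share of all regions with this order was not counted. At 10 kb from the span this site drops out, and with it all but 1 of the CD36 peaks called in AsPC1.

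The binding proteins had the fewest sites. FABP1 (chr2:88122982-88128062) had 3, at 17.2, 34.0 and 42.1 kb before its start, with percentiles of 12.2 to 28.8. Its peak number was 1 in both BxPC3 P1-α2 lists, in Panc10.05 P2-α8 replicate 1 and in AsPC1 sgNC replicate 1, and 0 in the other 14 lists. The 2 BxPC3 P1-α2 peaks lay at different sites, so FABP1 had no site called in both lists of any group.

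FABP2 (chr4:119317250-119322138) had 3 sites beyond its end. The site at chr4:119300202-119300948, over the start of ARLN, was called in 12 lists, with percentiles of 65.9 and 80.9 with sgNC, 72.1 and 3.68 with sgP1, and 59.4 and 73.7 with sgP2. The sgP1 lists lay apart from each other, and their values overlapped those of sgNC and sgP2. The neighbouring site at chr4:119299127-119299950 had percentiles of 80.1 and 81.7 with sgNC, 25.7 and 69.2 with sgP1, 54.9 and 80.1 with sgP2, and 19.3 and 2.93 in BxPC3 with P1-α2.

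Numbers of peaks were then compared between the isoforms. In Panc10.05, EHHADH had more peaks with P1-α2 (4 and 4 against 3 and 2), as 3.46% of all genes did, and CPT1A more with P2-α8 (7 and 6 against 4 and 5), as 23.9% did. In BxPC3, FABP1, FABP2, CPT2, ACSL5 and CD36 had more peaks with P1-α2 without overlap, 5 of 8 against 58% of all genes, and 0 of 8 had more with P2-α8 (0.02% of all genes). The count of 5 is thus near its background. CD36 had 8 and 8 peaks with P1-α2 and 4 and 4 with P2-α8, and ACSL5 11 and 8 against 5 and 3. With 2 lists against 2, an exact permutation test cannot go below a p of 0.333, and these differences were not tested.

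Over both lines, an exact two-sided permutation test of P1-α2 against P2-α8 within line called 0 of 20033 genes after Benjamini-Hochberg adjustment, and 0 at an unadjusted p under 0.05, since its 36 labellings cannot go below 0.0556. The mean difference was 3.25 peaks at ACSL5, 2.25 at CD36 and 1 at EHHADH, all higher with P1-α2, each with an exact permutation p of 0.167 and an adjusted p of 1. In Panc10.05 alone, P1-α2 and P2-α8 lists overlapped at ACSL5 (7 and 9 against 7 and 7) and CD36 (2 and 5 against 3 and 3). By sites, in Panc10.05, 2 of 40 sites were in both P1-α2 lists alone (3.64% of regions), 1 in both P2-α8 lists alone (10.9%) and 21 in all 4 lists (38%). In BxPC3, 13 of 51 were in both P1-α2 lists alone (28.2%), 1 in both P2-α8 lists alone (0.129%) and 11 in all 4 (18.3%). Of the 13, 4 belonged to CPT2 and 3 to ACSL5. With BxPC3 lists cut to equal length the 13 became 0, and without P1-α2 replicate 2 they became 24 and without P2-α8 replicate 1, 20.

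The 2 sites of Panc10.05 P1-α2 lay 41.9 kb before ACSL5, at chr10:112332049-112332597 (percentiles 23.6 and 44.8), and inside EHHADH, at chr3:185200719-185201130 (17.0 and 5.12). Both were also in both BxPC3 P1-α2 lists, with percentiles of 17.7 and 61.3 at ACSL5 and 11.9 and 22.4 at EHHADH, and the EHHADH site was in BxPC3 P2-α8 replicate 1 too (48.2). The ACSL5 site was thus called in all 4 P1-α2 lists and in 0 of 4 P2-α8 lists, 1 of 62 sites against 0.461% of all regions. Without Panc10.05 P1-α2 replicate 1 the count of 2 became 6. The count of 1 for Panc10.05 P2-α8 became 6 without P1-α2 replicate 2, 5 without P2-α8 replicate 2, 2 without P1-α2 replicate 1 and 0 with a reciprocal overlap of 50%.

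**Figure D4:**
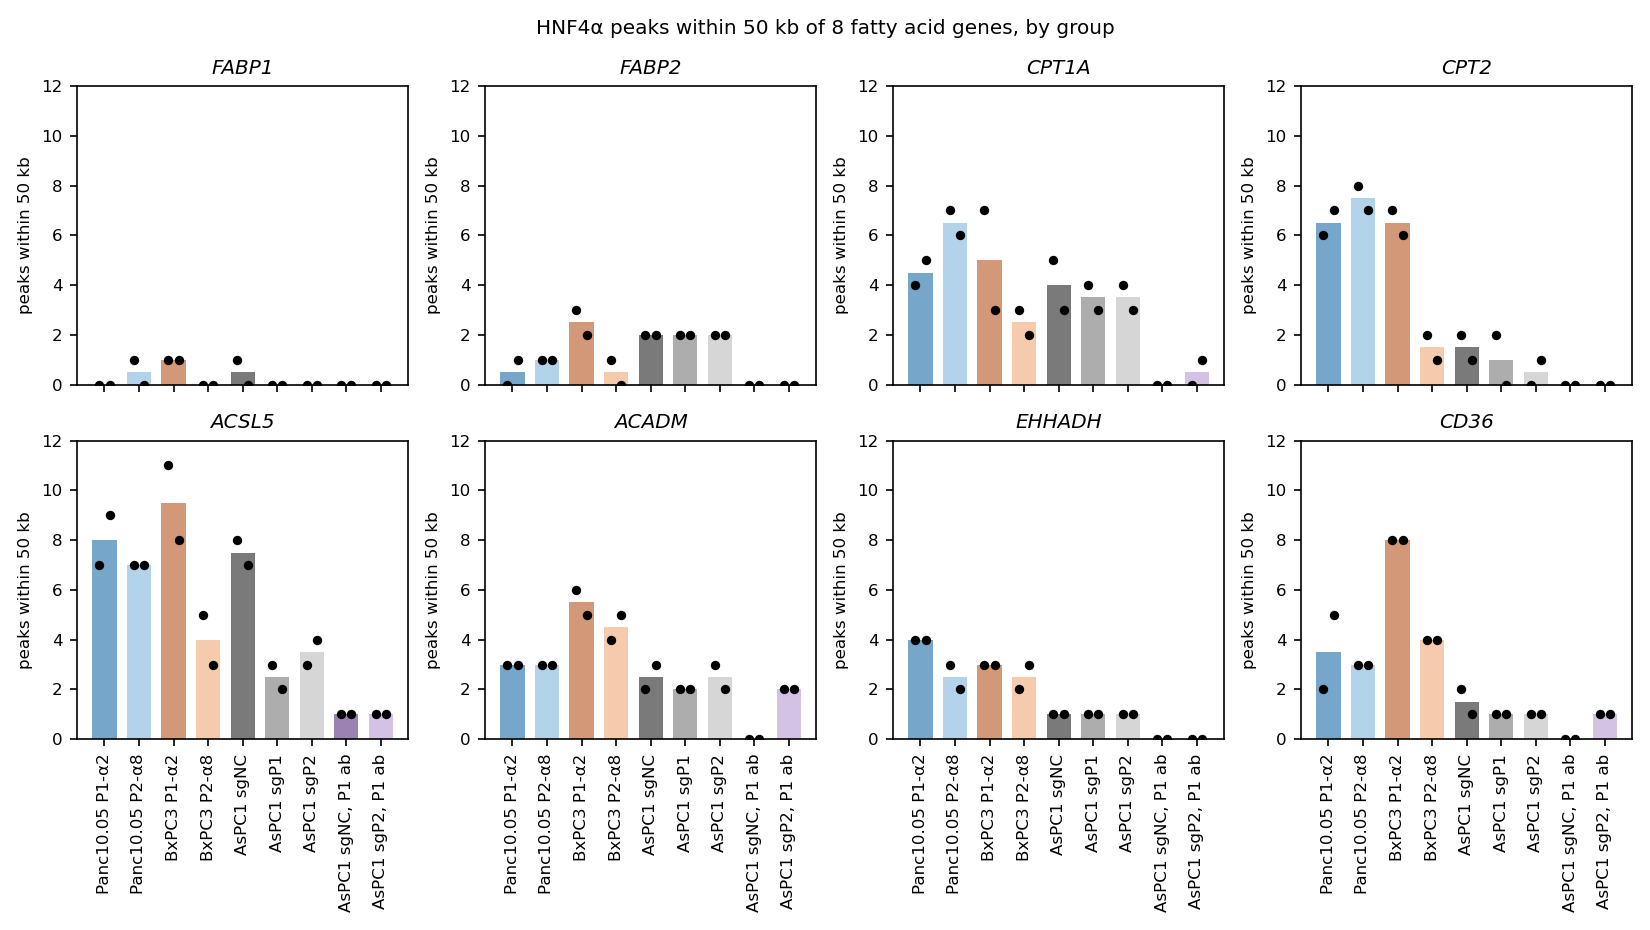
Number of peaks within 50 kb of each of the 8 genes (vertical axis) in the 9 groups (horizontal axis); bars are means of 2 lists and points the lists themselves, and "P1 ab" marks the P1-specific antibody. In BxPC3, CD36 has 8 and 8 peaks with P1-α2 and 4 and 4 with P2-α8; AsPC1 lists have a lower threshold than those of the induced lines.

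Between the induced lines, the exact two-sided permutation test over 4 lists each called 0 of 20033 genes after Benjamini-Hochberg adjustment, with a smallest adjusted p of 0.200, and 2866 at an unadjusted p under 0.05. ACADM was the only member among the latter, with 3 ± 0 peaks in Panc10.05 and 5 ± 0.816 in BxPC3 (SD, n = 4; exact permutation p = 0.0286, adjusted p = 0.200); 1.4% of all genes were higher in BxPC3 at that level and 12.9% higher in Panc10.05. The 4 BxPC3 lists held 6, 5, 4 and 5 peaks near ACADM, all above the 3 of each Panc10.05 list. The sites of this locus called in BxPC3 alone all lay inside SLC44A5, each in 1 or 2 lists. The site inside ACADM was in all 8 induced lists. The unadjusted p rose above 0.05 without any 1 of the Panc10.05 lists, at a −log10 q of at least 20, within 10 kb and at equal length. CPT2 had 7 ± 0.816 peaks in Panc10.05 and 4 ± 2.94 in BxPC3 (exact permutation p = 0.200), with the BxPC3 lists split by isoform.

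Sites called in all 3 lines with the pan-HNF4α antibody were 15 of 62, against 14.2% of all regions. A further 20 were in Panc10.05 and BxPC3 (20.6% of all regions), 14 in BxPC3 alone (21.7%), 3 in Panc10.05 alone (21.6%) and 7 in AsPC1 alone (12.2%). The 3 sites of Panc10.05 alone all belonged to the CPT2 locus. With a −log10 q of at least 8 in every list, 14 of 57 sites were in all 3 lines, against 12.9% of regions, and 2 in AsPC1 alone.

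In AsPC1, the peak number at ACSL5 was 8 and 7 with sgNC, 3 and 2 with sgP1, and 3 and 4 with sgP2, so sgNC did not overlap either targeting guide. Among all genes, 16.2% had more peaks with sgNC than sgP1 and 12% more than sgP2, so 1 of 8 members is near the background. The peak numbers of the other 7 members overlapped in both comparisons. More peaks with a targeting guide than with sgNC were found at 0 members for sgP1 (0.384% of all genes) and 0 for sgP2 (0.389%). Replicate 1 of sgNC was the longest AsPC1 list, with 24295 peaks, while replicate 2 held 15118, close to the 15116 of sgP2 replicate 2.

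Of 25 sites in the sgNC and sgP1 lists, 4 were in both sgNC lists alone (8.97% of regions), 0 in both sgP1 lists alone (0.409%) and 10 in all 4 (32%). Of 24 sites in the sgNC and sgP2 lists, 3 were in both sgNC lists alone (7.2%), 0 in both sgP2 lists alone (0.407%) and 11 in all 4 (34%). All of the sgNC sites belonged to ACSL5, and 3 were shared by both comparisons, which have the same sgNC lists. These 3, at 14.1, 15.5 and 30.6 kb inside the gene, were in neither guide's lists, 3 of the 17 sites in both sgNC lists against 7.99% of regions. Their −log10 q in the sgNC lists was 7.57 and 15.0, 10.3 and 6.61, and 7.35 and 4.52. The 4 sites of sgNC against sgP1 became 2 at a −log10 q of at least 8 and 1 at equal length, and without sgNC replicate 2 the counts of 4 and 3 became 8 and 7.

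The fourth ACSL5 site, chr10:112364683-112365671, lies 8.88 kb before the start. Its percentiles were 71.5 and 68.5 with sgNC and 33.8 and 51.9 with sgP2, and no peak was called in either sgP1 list. Of 18 sites, it alone was in both lists of 1 targeting guide and in neither list of the other. These were the sgP2 lists, as for 4.32% of regions, while 0 sites were in both sgP1 lists alone (2.75%). In the induced lines it was called in all 8 lists, with percentiles of 37.2, 39.5, 79.7 and 80.5 in Panc10.05 and 92.5, 96.8, 64.5 and 92.7 in BxPC3.

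With the P1-specific antibody, 5 sites were called in the 4 lists. The site inside ACSL5 was in all 4 (3.04% of regions), and 3 sites, both at ACADM and the one beyond CD36, were in both sgP2 lists and neither sgNC list (36%). Peak numbers at ACADM were 0 and 0 with sgNC and 2 and 2 with sgP2, and at CD36 0 and 0 against 1 and 1, as for 20.1% of all genes. Of the 11 sites in both pan-HNF4α lists of sgP2, 4 were also in both P1-antibody lists, against 28% of regions. Of the 17 in both pan-HNF4α lists of sgNC, 1 was, against 1.36%. The sgNC P1-antibody lists are the shortest of all. When the P1-antibody lists are cut to equal length, 0 sites are left in the sgP2 lists alone.

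The wider pathway was described with 53 other genes in 6 roles. A peak within 50 kb was found in at least 1 list for all 53, and in all 14 pan-HNF4α lists for 24, against 29.6% of all genes. By role these were 3 of 12 genes of binding and uptake, 0 of 4 of activation, 3 of 5 of the carnitine shuttle, 7 of 15 of mitochondrial oxidation, 7 of 10 of peroxisomal oxidation and 4 of 7 regulators and related genes. Among the 4 other long-chain acyl-CoA synthetases, ACSL3 had a peak in 10 lists, ACSL1 in 7, ACSL6 in 6 and ACSL4 in 5, beside 18 for ACSL5. FABP3 had one in 11 lists and FABP4 in 7.

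Genes with a peak in all 18 lists, as at ACSL5, were 5 of the 53, against 2.26% of all genes: FABP7 (the brain fatty acid binding protein), HADHA and HADHB (the subunits of the mitochondrial trifunctional protein, neighbours on the genome that can share a peak), ECHS1 (an enoyl-CoA hydratase) and PPARA, the nuclear receptor of fatty acid oxidation. PPARA had a median of 8 peaks per list. CPT1B, the muscle form of CPT1A, had a peak in 16 lists.

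In BxPC3, 35 of the 53 genes had more peaks with P1-α2 than with P2-α8 without overlap (58% of all genes), and 0 had fewer (0.02%). In Panc10.05, 21 had more with P2-α8 (23.9% of all genes) and 1, ACSL6, more with P1-α2 (3.46%). In AsPC1, 14 had more with sgNC than sgP1 (16.2%) and 11 more than sgP2 (12%), and 18 had more P1-antibody peaks with sgP2 than sgNC (20.1%). Peaks in both replicates were found at 48 of the 53 in Panc10.05 with P1-α2 (74.5% of all genes) and 50 with P2-α8 (79.5%). In BxPC3 the numbers were 48 (76.6%) and 30 (45.4%), and in AsPC1 they were 37 with sgNC (58.5%), 30 with sgP1 (50.6%) and 32 with sgP2 (52%).

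The gene of the pathway whose presence of a peak over the 18 lists was most like that of FABP1 was ACADSB, alike in 15 of 18 lists. FABP1 had a peak in 4 lists and ACADSB in 5, so most of this likeness is a shared absence of peaks. For CPT2 these were FABP3 and SLC27A5, alike in 17 of 18 lists. The share of all genes alike in as many lists was not counted. For the other members 3 to 16 genes were tied.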

How the data were processed

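HNF4α ChIP-seq peaks of 18 libraries were analysed; 14 input libraries were not used. Per the submitters' processing notes, Bowtie2 2.2.9, MACS2 2.2.7 and the builds hg38 and mm10 were used, with no role given, and the control is not given in the sources used here. Peaks were called per library. In the deposited lists, fold enrichment is a linear ratio, p and q values are given as −log10, and a whole-number score follows the −log10 q. The fit to hg38 was checked: in every list more summits lay within 1 kb of the ends of GRCh38.p14 genes (5.33% to 18.8%) than after a shift of 100 kb (3.46% to 4.88%). For BxPC3 P2-α8 the title names P1 with α8; the genotype label was used.

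Peaks of all lists that overlapped by at least 1 bp were merged. Genes came from RefSeq (GRCh38.p14, 20033 protein-coding genes; 8 of 8 members and 53 of 53 pathway genes matched) and sequences from its promoter table. Percentiles rank the fold enrichment within a list. Peak numbers were compared by exact permutation tests over all genes with Benjamini-Hochberg adjustment at 0.05 (Python 3.11.15, pandas 2.3.3, scipy 1.17.1); merging was tested against bedtools 2.31.1 and the tests on simulated data. Named sites are, per gene, the site in most lists and sites in both lists of 1 group and neither of the other; further sites were chosen after their values were seen. Of the pathway list, the gene alike in most lists is named where 1 or 2 genes lead, and other pathway genes were named after their values were seen. The members and lists were chosen with earlier results of these data known. Alternatives were a −log10 q of at least 8 or 20, 10 kb windows, equal list lengths, reciprocal overlap of 50%, a replicate block and leaving out each replicate.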

Additional observations from a re-analysis of the deposited data

How the results depend on the processing

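Counts of loci with a peak in both replicates kept within 1.5 times their value under 49 of 54 alternatives. Counts of sites in 1 group alone did so under 76 of 108. Without the settings that leave out a replicate, it was 31 of 36 and 42 of 60. The induced lists already stop above a −log10 q of 8, so that setting could not change their counts or the line test. The test between lines called 0 members under each of the 12 alternatives that could reach an unadjusted p under 0.05. It called 0 of all genes there too, with smallest adjusted p from 0.162 to 0.282, so its 0 does not show stability. The other 14 could not reach an unadjusted p under 0.05: the line test with the replicate block (0 members) and all 13 of the isoform test (0 members), so their 0 says nothing about stability. For loci, the sgNC P1-antibody count of 1 became 0 at a −log10 q of at least 8 and 0 at 20; BxPC3 P1-α2 became 5 and the sgP2 P1-antibody count 1 at equal length; sgNC became 4 within 10 kb. For sites in 1 group alone, a −log10 q of at least 20 gave 1 for Panc10.05 P1-α2, 2 for Panc10.05 P2-α8, 1 for sgNC against sgP2, 2 for sgP2 against sgP1 and 1 for the sgP2 P1-antibody lists, and a −log10 q of at least 8 gave 2 for sgNC against sgP1. Equal length gave 2 for Panc10.05 P2-α8, 0 for BxPC3 P1-α2, 2 for BxPC3 P2-α8, 1 for sgP1 and 1 for sgNC in their comparison, 1 for sgP2 against sgNC and 0 for the sgP2 P1-antibody lists. A window of 10 kb gave 1 for Panc10.05 P1-α2, 3 for BxPC3 P1-α2 and 1 for the sgP2 P1-antibody lists. Reciprocal overlap gave 0 for Panc10.05 P2-α8 and 2 for BxPC3 P2-α8. The causes were not tested, beyond the shorter lists and windows that these settings make.

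With 1 replicate left out, the rule of a peak in both lists eases, so counts of loci could only stay or rise. No count of sites fell either. These ranges therefore show only 1 direction of change. Loci ranged from 6 to 7 for Panc10.05 P1-α2, 7 to 8 for Panc10.05 P2-α8, 8 to 8 for BxPC3 P1-α2 and 6 to 7 for BxPC3 P2-α8. In AsPC1 they ranged from 7 to 8 for sgNC, 6 to 7 for sgP1 and sgP2, 1 to 1 for the sgNC and 3 to 4 for the sgP2 P1-antibody lists. Sites in 1 group alone ranged from 2 to 6 for Panc10.05 P1-α2 and 1 to 6 for P2-α8, with 6 for P1-α2 without its replicate 1. They ranged from 14 to 24 for BxPC3 P1-α2, with 24 without its replicate 2 and 20 without P2-α8 replicate 1, and from 1 to 3 for BxPC3 P2-α8. They ranged from 0 to 1 for sgP1 and 5 to 8 for sgNC in their comparison, from 0 to 0 for sgP2 and 3 to 7 for sgNC in theirs, and, between the 2 targeting guides, from 0 to 1 (sgP1) and 1 to 2 (sgP2). Without sgNC replicate 2, sgNC had 8 and 7 sites; without sgP2 replicate 2, sgNC had 6 against sgP2. For the P1 antibody they ranged from 3 to 4 for sgP2 and 0 to 0 for sgNC.

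Single comparisons of 2 groups were not tested, with or without pairing. Whether the replicate numbers pair libraries was not settled. Same-numbered libraries correlated between -0.145 (sgP2 and sgNC) and 0.0963 over genes, and sgP2 against sgNC was not tested with a crossed pairing either.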
